A study of Mus musculus with 4 samples.

Results

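Tubulin genes and the genes of the tubulin polymerisation-promoting proteins were followed in mouse cultures labelled as oligodendrocytes, the cells that make the brain's myelin, with and without a conditional deletion of Zdhhc5. The members were every gene of the deposited expression table whose symbol begins with Tuba, Tubb or Tubg and a number, or with Tppp. That rule gave 10 of the 6940 listed genes: 2 alpha tubulins, 6 beta tubulins and 2 Tppp genes. The mouse annotation (GENCODE M21) has 20 protein-coding genes that match the rule. The other 10, namely Tppp2, Tuba1b, Tuba1c, Tuba3a, Tuba3b, Tuba8, Tubb1, Tubb5, Tubg1 and Tubg2, were not analysed here.

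The comparison rested on 4 libraries of messenger RNA. Conditional knockout (cKO) cells, with 2 libraries, had the genotype Olig1cre/+;Zdhhc5fl/fl, and control cells, with 2 libraries, had the genotype Zdhhc5fl/fl. Both came from C57BL/6 cortex at postnatal day 5, were enriched by antibody panning for GalC and O4, and spent 6 days in growth medium. Differentiation was then started with T3, a thyroid hormone, at 40 ng/mL, and all cells were harvested after 24 h. The floxed alleles were shared by both genotypes, and the Cre allele was carried by cKO cells alone, so its effect and that of the deletion cannot be told apart. Cre follows Olig1, a gene of the oligodendrocyte lineage, and other cells in the dish need not have lost Zdhhc5. Nothing in the labels ties the 2 libraries of a genotype to separate animals or cultures, so p-values measure only the spread between these libraries, which may be technical. Oligodendrocyte markers were present in every library, but the list of astrocyte markers had more summed normalised reads than the oligodendrocyte list in all 4. Those sums cover 9 astrocyte and 14 oligodendrocyte genes and are not corrected for gene length, so they do not measure the share of each cell type. The genotype could not be checked against the deleted gene, which was not analysed here.

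Microtubules are hollow polymers of alpha and beta tubulin dimers, and each subunit comes in several isotypes encoded by separate genes. The isotypes differ most in their carboxy-terminal tails, which face outward and are where many microtubule-associated proteins bind and where most tubulin modifications are made. In oligodendrocytes microtubules fill the processes and serve as tracks for the transport of myelin components, among them Mbp mRNA. Tppp is a protein of myelinating oligodendrocytes that bundles microtubules and seeds them at Golgi outposts, away from the cell body. Tubb4a is the beta isotype best known from this cell type, and mutations in its human counterpart cause a hypomyelinating leukodystrophy.

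The beta isotypes were compared by the coding sequences behind these tails and by their whole coding sequences. The last 60 coding bases of 5 isotypes, ending in the stop codon, are printed from GENCODE M21 (GRCm38). Capitals mark bases that do not match Tubb4a in a pairwise alignment of the printed ends.
Tubb4a: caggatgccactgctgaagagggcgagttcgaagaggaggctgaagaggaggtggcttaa
Tubb2a: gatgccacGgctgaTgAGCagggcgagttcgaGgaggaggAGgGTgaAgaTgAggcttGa
Tubb2b: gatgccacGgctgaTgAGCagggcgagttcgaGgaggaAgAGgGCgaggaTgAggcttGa
Tubb3: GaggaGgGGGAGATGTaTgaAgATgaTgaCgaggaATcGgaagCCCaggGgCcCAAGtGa
Tubb4b: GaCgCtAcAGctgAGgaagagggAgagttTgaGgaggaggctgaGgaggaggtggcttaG
The stretches lie at chr17:57080690-57080749 (minus strand) for Tubb4a, chr13:34074468-34074527 (minus strand) for Tubb2a, chr13:34127471-34127530 (minus strand) for Tubb2b, chr8:123421623-123421682 (plus strand) for Tubb3 and chr2:25222308-25222367 (minus strand) for Tubb4b. Bases not matched to Tubb4a in these alignments numbered 30 of the 60 for Tubb3, 14 each for Tubb2a and Tubb2b and 13 for Tubb4b. The coding sequences differ in length, with 1353 bases in Tubb3, 1338 in Tubb2a, Tubb2b and Tubb4b and 1335 in Tubb4a. The printed ends of Tubb3 and Tubb4a therefore need not be corresponding stretches. The capitals and the count for Tubb3 thus do not measure how far it differs from Tubb4a. Over the whole coding sequence Tubb4a was 82.1% to 84.5% identical to the other listed beta tubulins, whereas Tubb2a and Tubb2b were 96.5% identical to each other.

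Windows of 50 bases separate some members from other genes better than others. No 50-base window of the longest transcript of Tppp, Tubb3 or Tubb6 occurred in transcripts of another gene, and 0.184% of the windows of Tubb4a and 0.742% of those of Tppp3 did. Shared windows made up 49.6% of Tubb2a, with 45.6% found in Tubb2b, and 39.3% of Tubb2b, with 33.4% found in Tubb2a. They made up 75.5% of Tuba1a, mainly with Tuba1c, and 55.5% of Tubb4b, mainly with the pseudogene Tubb4b-ps1. Tuba4a shared 48.8% of its windows, nearly all with Stk16, a kinase gene on the opposite strand that overlaps 1379 of the 3701 exonic bases of Tuba4a. Tuba1a shares 473 of its 1803 exonic bases with Gm49450, a protein-coding gene on the same strand. Tubb4b shares 121 of its 2088 with Fam166a on the opposite strand. The sources used here do not give the strand setting or the handling of reads with several matches. The values of Tuba1a, Tuba4a, Tubb2a, Tubb2b and Tubb4b are therefore less certain than those of the other 5 members.

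Tppp and Tubb4a, the members most tied to oligodendrocytes, were the ones with large falls in cKO cells, and most other isotypes were higher. Of the 10 members, 7 were called higher and 3 lower by limma at an adjusted p under 0.05. Every listed gene was called (100%), 46.7% higher and 53.3% lower, because the table lists only genes that the authors had already called in these libraries, so a call adds nothing about a member beyond its direction. At least 1.5-fold higher were 5 members, against 17.4% of the listed genes, and at least 1.5-fold lower were 2, against 27.6%. The median log2 fold change was 0.58 over the members and -0.22 over all listed genes. The 9 members other than Tppp had a GC content above the median of the listed genes (49.4%) and a length below it (4892.5 bases). With the trend of the fold changes with GC content removed only 1 member, Tuba4a, was still at least 1.5-fold higher. With the trend with gene length removed too, none was, Tuba4a falling just short at a log2 fold change of 0.583. The 2 members that were at least 1.5-fold lower did not change in number. The trends were fitted in each library over the listed genes, so a trend that differs between genotypes cannot be told apart from an effect of genotype. Over all listed genes, 57.4% of the calls were higher with the GC trend removed and 56.9% with both removed.

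**Figure D1:**
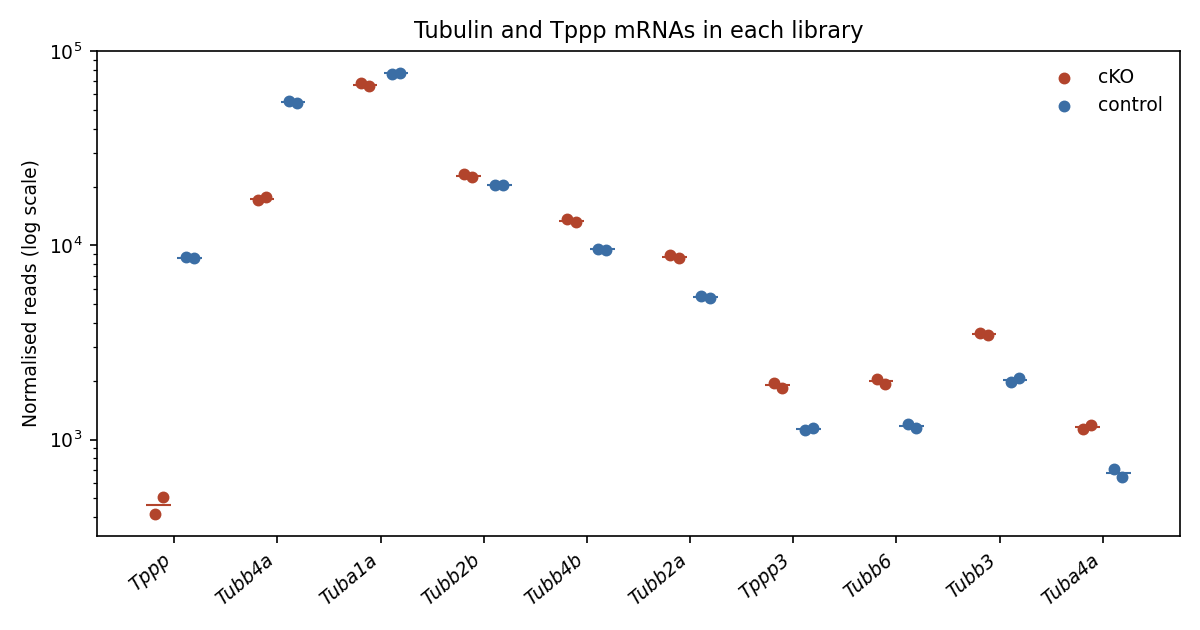
Normalised reads of the 10 members in each library on a log axis, cKO left of control, with a point for each library and a line at the mean. The points of the 2 genotypes do not overlap for any member, which holds for 6939 of the 6940 listed genes. The gap is widest for Tppp.

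Tppp (ENSMUSG00000021573, chr13:74009407-74035753, plus strand) had the largest change of the group. It had 414.0 and 505.5 normalised reads in cKO libraries 1 and 2, against 8713 and 8605 in control libraries 1 and 2. Both cKO values lay far below both controls, and the cKO libraries also differed more from each other, in relative terms, than the controls did. The means were 460 ± 64.7 and 8659 ± 76.3 (SD, n = 2 each), so the level in cKO cells was 18.8-fold lower (log2 fold change -4.24 with an SE of 0.06, adjusted p 1.31e-24 in limma). This was the third largest fall by log2 fold change in the table. Behind these values stood 507 and 426 recovered reads in cKO libraries and 8713 and 8452 in controls, and the log2 fold change was -4.03 after removal of the GC trend and -4.04 after that of the length trend too. Per kilobase of gene length, Tppp had 90.1 ± 12.7 reads in cKO cells and 1697 ± 14.9 in controls, and its rank by that level among the 6940 listed genes was 4992 and 4649 in cKO libraries and 490 in each control. In a bulk sample fewer cells of a type and less RNA per cell cannot be told apart, which applies to every value given here.

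The listed genes with the profile nearest to that of Tppp were found without regard to function. The measure was the Euclidean distance over the 4 libraries between log2(value + 1) profiles, each set to its own control mean, and the nearest 5 genes are given. Gm10564, an antisense RNA gene whose reads cannot be told from those of its partner without strand, lay at a distance of 0.27. It was at 0 in both cKO libraries, against 20.0 and 19.3 normalised reads in the controls. Its distance is therefore set by the 1 added before the log, and its place as the nearest gene rests on that choice. Mobp, a myelin protein gene, lay at 0.29, with 78.4 and 78.3 normalised reads in cKO libraries, against 1363 and 1337 in controls, 17.2-fold lower. Tmem125 followed at 0.71, Cldn14 at 1.00 and Sytl5 at 1.0098. These had at most 19.0 normalised reads in a cKO library, so the added 1 weighs on their distances too. Of the 5, Mobp had the highest control level, and Tppp itself lay well above Mobp in both genotypes.

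Tppp3 (ENSMUSG00000014846, chr8:105467493-105471526, minus strand), the other listed gene of the family, moved the opposite way. It encodes a shorter protein, with 531 coding bases against 657 in Tppp, and the aligned coding sequences were 55.1% identical. Tppp3 had 1960 and 1843 normalised reads in cKO libraries, against 1124 and 1145 in controls. It was 1.68-fold higher (log2 fold change 0.74 with an SE of 0.05, adjusted p 2.54e-11 in limma), and the log2 fold change was 0.47 after removal of the GC trend and 0.32 after removal of both trends. Per kilobase Tppp3 lay above Tppp in cKO cells, at 1029 ± 45.0 normalised reads beside 90.1 ± 12.7, and below it in controls, at 614 ± 8.18 beside 1697 ± 14.9.

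Tubb4a (ENSMUSG00000062591, chr17:57080066-57087782, minus strand) was the beta tubulin with the highest level in controls and the only listed one that fell. It had 17100 and 17697 normalised reads in cKO libraries, against 55348 and 54003 in controls. The cKO values were close to each other and far below both controls. The mean of 17398 ± 422 in cKO cells was 3.14-fold below the 54676 ± 951 in controls (SD, n = 2 each; log2 fold change -1.65 with an SE of 0.03, adjusted p 3.17e-23 in limma). The fall was larger with the GC trend removed, at -1.93 on the log2 scale, and with both trends removed, at -2.07. By level per kilobase Tubb4a ranked 73 and 72 among all listed genes in cKO libraries, against 13 in each control library.

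The other 5 listed beta tubulins were all higher in cKO cells, by amounts that ran from 1.12-fold to 1.73-fold. Tubb2b (ENSMUSG00000045136, chr13:34126748-34130466, minus strand), an isotype of the developing brain, had 23303 and 22499 normalised reads in cKO libraries, against 20373 and 20437 in controls. That was the smallest rise of the group (1.12-fold, log2 fold change 0.17 with an SE of 0.03, adjusted p 4.28e-05 in limma), and its direction turned to -0.03 once the GC and length trends were both removed, where limma did not call it (adjusted p 0.855). Tubb2a (ENSMUSG00000058672, chr13:34074274-34078007, minus strand), its near copy, lies 48740 bases away and had 8876 and 8578 normalised reads in cKO libraries, against 5517 and 5391 in controls. Tubb2a was 1.60-fold higher (log2 fold change 0.68 with an SE of 0.04, adjusted p 4.43e-14 in limma), and 0.44 on the log2 scale without the GC trend and 0.28 without both trends. Reads shared between the pair could move part of one value to the other.

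Tubb4b (ENSMUSG00000036752, chr2:25222160-25224702, minus strand), a broadly expressed isotype that is also abundant in cilia, had 13697 and 13158 normalised reads in cKO libraries, against 9588 and 9526 in controls. This was a rise of 1.41-fold (log2 fold change 0.49 with an SE of 0.03, adjusted p 4.21e-12 in limma). Tubb3 (ENSMUSG00000062380, chr8:123411424-123422015, plus strand), widely used as a marker of neurons, had 3526 and 3474 normalised reads in cKO libraries, against 1972 and 2071 in controls. Its rise of 1.73-fold was the largest of the beta tubulins (log2 fold change 0.79 with an SE of 0.04, adjusted p 1.97e-13 in limma). Tubb6 (ENSMUSG00000001473, chr18:67390717-67402748, plus strand), a minor isotype, had 2057 and 1944 normalised reads in cKO libraries, against 1199 and 1147 in controls, 1.71-fold higher (log2 fold change 0.77 with an SE of 0.05, adjusted p 1.21e-11 in limma). In these 3 genes the libraries of a genotype lay close together. The genotypes did not overlap, which held for 6939 of the 6940 listed genes. With both trends removed the log2 fold changes of these 3 genes were smaller, 0.12 for Tubb4b, 0.35 for Tubb3 and 0.35 for Tubb6.

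The 2 listed alpha tubulins differed in level and in direction. Tuba1a (ENSMUSG00000072235, chr15:98949837-98953703, minus strand), the main alpha isotype of the young brain, had 68316 and 66181 normalised reads in cKO libraries, against 76351 and 77477 in controls. It was 1.14-fold lower (log2 fold change -0.19 with an SE of 0.03, adjusted p 1.53e-06 in limma). With relative log expression factors the log2 fold change of Tuba1a was near 0, at -0.0027, and limma no longer called it. Those factors were computed from the listed genes alone, all of them selected as changed, and so were the trends with GC content and length. None of these settings thus settles the direction of Tuba1a. The fall of Tuba1a was larger with the GC trend removed, at -0.365 on the log2 scale, and with both trends removed, at -0.52. Tuba4a (ENSMUSG00000026202, chr1:75214228-75219865, minus strand), the alpha isotype whose gene does not encode the terminal tyrosine of other alpha tubulins, had 1136 and 1190 normalised reads in cKO libraries, against 705 and 638 in controls. Tuba4a was 1.73-fold higher (log2 fold change 0.79 with an SE of 0.07, adjusted p 4.81e-10 in limma), and its log2 fold change was 0.65 with the GC trend removed and 0.58 without both trends.

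**Figure D2:**
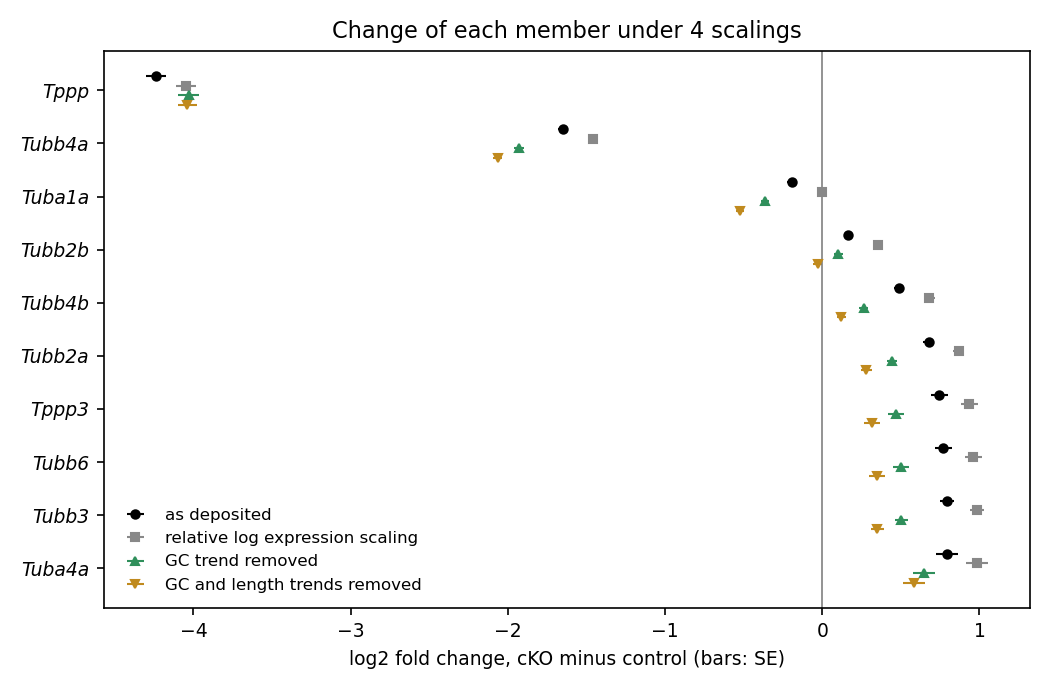
Log2 fold change of each member, cKO over control, with bars for the standard error, on the deposited scale (circles), with relative log expression factors from the listed genes alone (squares), and with the GC trend (upward triangles) or the GC and length trends (downward triangles) removed. Tppp and Tubb4a stay far below 0 in all 4 sets, while the rises shrink with the trends removed, where that of Tubb2b reaches -0.03, and Tuba1a lies near 0 with relative log expression factors.

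Levels between genes can be compared only per kilobase of gene length. In cKO cells the order by mean normalised reads per kilobase (± SD, n = 2) was Tuba1a (37298 ± 837), Tubb2b (9983 ± 248), Tubb4a (7809 ± 189), Tubb4b (6431 ± 182), Tubb2a (5420 ± 131), Tubb3 (1874 ± 19.7), Tubb6 (1138 ± 45.5), Tppp3, Tuba4a (314 ± 10.4) and Tppp. In controls it was Tuba1a (42659 ± 442), Tubb4a (24540 ± 427), Tubb2b (8895 ± 19.6), Tubb4b (4577 ± 21.1), Tubb2a (3388 ± 55.4), Tppp, Tubb3 (1082 ± 37.4), Tubb6 (668 ± 20.8), Tppp3 and Tuba4a (181 ± 12.7). Tubb4a thus stood below Tubb2b in cKO cells and above it in controls, and Tppp stood last in cKO cells. In neither genotype did neighbours in the order overlap between libraries, the closest pair being Tubb6 and Tppp3.

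Shares of one isotype in the summed level of its family do not depend on the scaling between libraries. Tubb4a made up 23.3% and 24.6% of the summed per-kilobase level of the 6 listed beta tubulins in cKO libraries 1 and 2, against 57.1% and 56.6% in control libraries 1 and 2. Its mean share was 23.9% ± 0.900 in cKO cells and 56.9% ± 0.374 in controls (SD, n = 2 each), a difference of -32.95 percentage points. The largest share thus belonged to Tubb2b in cKO cells, at 30.8% and 30.3%, against 20.4% and 20.8% in controls. Tubb4b held 19.9% and 19.5% in cKO libraries, against 10.6% and 10.7% in controls, and Tubb2a held 16.7% and 16.5%, against 7.88% and 7.82%. The minor isotypes had higher shares too, with 5.73% and 5.75% for Tubb3 in cKO libraries, against 2.43% and 2.59% in controls, and 3.55% and 3.42% for Tubb6, against 1.57% and 1.53%. No share overlapped between genotypes, although with 2 libraries each the exact two-sided permutation test over libraries gave p = 0.333 for every share, the smallest p that this design allows.

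**Figure D3:**
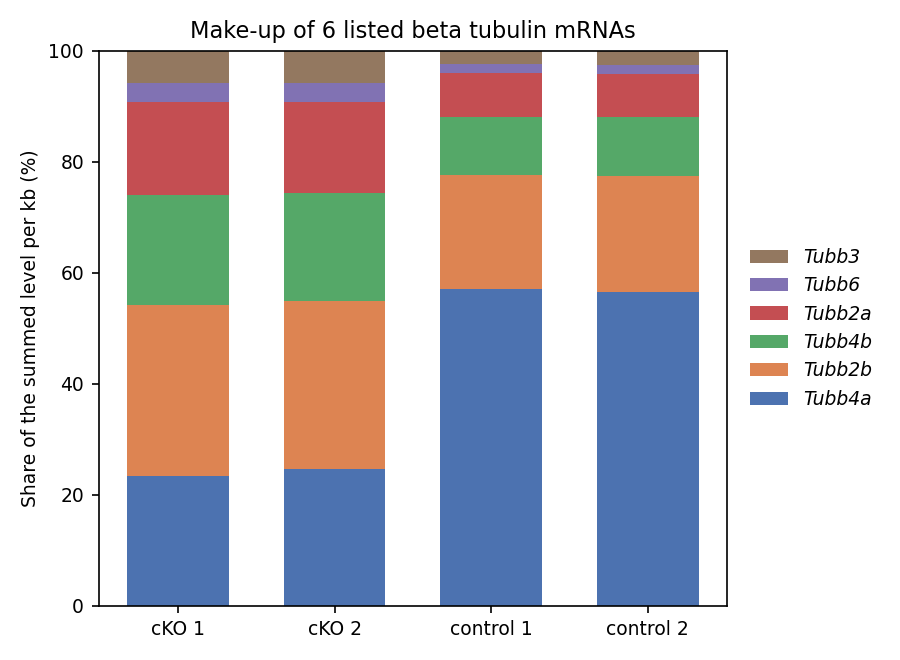
Share of each of the 6 listed beta tubulins in their summed level per kilobase, in percent, with 1 bar per library and cKO left of control. Tubb4a takes 23.3% and 24.6% of the cKO bars and 57.1% and 56.6% of the control bars, and each other isotype takes a larger part in cKO.

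These shares cover the listed isotypes only, and Tubb1 and Tubb5 were not analysed here. Tubb2a and Tubb2b together, which share many windows, held 47.5% and 46.8% in cKO libraries, against 28.3% and 28.6% in controls. With the GC trend removed, Tubb4a held 22.5% and 24.0% in cKO libraries, against 58.1% and 57.7% in controls. The sum of the 6 beta tubulins was itself lower, at 32655 ± 437 normalised reads per kilobase in cKO cells and 43149 ± 467 in controls, a ratio of 0.757. Without Tubb4a the other 5 summed to 24846 ± 626 in cKO cells and 18609 ± 40.2 in controls, a ratio of 1.34 (exact permutation p = 0.333 for both sums). Of the listed alpha tubulins, Tuba4a held 0.803% and 0.869% of the sum in cKO libraries, against 0.448% and 0.400% in controls, and Tuba1a held the rest.

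Ratios within a library set the 2 large falls beside those of oligodendrocyte genes. For every 100 reads of Mbp, the myelin basic protein gene, there were 2.57 and 3.02 reads of Tppp in cKO libraries, against 7.01 and 6.92 in controls, so Tppp was lower relative to Mbp as well. For Tubb4a the ratio lay the other way, with 106 reads per 100 Mbp reads in each cKO library, against 44.5 and 43.4 in controls. Mbp itself was 7.57-fold lower in cKO cells. Olig1, the lineage factor whose locus names the Cre allele, was 1.75-fold lower. Only cKO cells carried that allele, so its own effect on Olig1 cannot be told apart from that of the deletion. Per 100 reads of Olig1, Tppp had 5.71 and 7.85 reads in cKO libraries, against 72.39 and 72.04 in controls. Tubb4a had 236 and 275 reads per 100 Olig1 reads in cKO libraries, against 460 and 452 in controls. The fall of Tppp was thus steeper than those of Mbp and Olig1, and that of Tubb4a lay between them, with exact permutation p = 0.333 for each ratio.

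Promoters could be read for the 7 members found in the RefSeq promoter table (GRCm38.p6), and Tppp3, Tubb2b and Tubb6 had no entry. The 250 bases before the RefSeq start are printed for Tppp, which had the largest fall, and for Tubb2a, a member that rose. Capitals mark matches to motifs searched on both strands: the GC box GGGCGG, the TATA box TATAAA, the E-box CAGCTG, and a pair of SOX-type motifs, spelled ACAAAG in one case and in the other case AACAAT. None of these motifs overlaps another in the printed stretches. The Tppp stretch lies at chr13:74009169-74009418 (plus strand) and the Tubb2a stretch at chr13:34078009-34078258 (minus strand). The RefSeq start of Tppp lies inside the gene as the deposited table places it, so the last 12 bases printed for Tppp, with its marked GC box, fall within the listed gene.
Tppp: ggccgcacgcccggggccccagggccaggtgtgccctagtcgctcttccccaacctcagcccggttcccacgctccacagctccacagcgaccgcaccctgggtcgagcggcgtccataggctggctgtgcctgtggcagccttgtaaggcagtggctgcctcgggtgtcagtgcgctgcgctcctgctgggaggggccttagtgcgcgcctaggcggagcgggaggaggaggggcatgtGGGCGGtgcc
Tubb2a: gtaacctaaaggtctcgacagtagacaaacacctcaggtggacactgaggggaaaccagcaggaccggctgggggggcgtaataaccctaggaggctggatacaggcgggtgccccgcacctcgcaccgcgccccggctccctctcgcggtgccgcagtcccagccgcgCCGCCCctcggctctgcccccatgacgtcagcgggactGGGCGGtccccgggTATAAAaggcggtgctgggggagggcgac
GGGCGG occurred in 6 of the 7 member promoters, all but that of Tubb4a, and in 32.7% of the 32851 promoters of the table. TATAAA occurred in 1, that of Tubb2a, against 12.4% of all promoters. AACAAT occurred in 1, that of Tubb4b, against 9.42%, while ACAAAG (16.5% of all) and CAGCTG (13% of all) occurred in none. Of the 2 members with large falls, Tppp thus held 1 match, within the listed gene, and Tubb4a none.

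Other genes that build, fold, modify and bind microtubules were followed in 6 lists with 129 genes, of which 66 were listed. In cKO cells 18 of the 66 were called higher and 48 lower, beside 46.7% higher and 53.3% lower over all listed genes. Every listed gene was called, so the counts of each microtubule list are to be read beside those shares. The median log2 fold change of the 66 was -0.47, beside -0.22 over all listed genes. With the GC trend removed, 18 of the 66 were called higher and 30 lower, with a median of -0.13. Over all 6934 genes with a GC value, 2861 were then called higher and 2124 lower. With both trends removed, 17 of the 66 were called higher and 28 lower, with a median of -0.04, beside 2783 higher and 2110 lower over all. The counts of each microtubule list with trends removed are to be read beside these numbers instead. On the deposited scale, counted by gene, the tubulin genes themselves thus mostly rose while most of the listed genes acting on tubulin fell. The summed normalised reads of the 8 listed tubulins were lower, at 136366 ± 2326 in cKO cells and 170872 ± 257 in controls. That was a ratio of 0.798 (exact permutation p = 0.333). With both trends removed, the median was 0.20 over the 10 members, beside -0.04 over the 66 genes. The difference between these groups was not tested.

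Genes of microtubule nucleation were listed in part. Of 20 genes of the gamma tubulin complex and its partners 8 were listed, 6 lower and 2 higher, beside 53.3% lower over all listed genes, and the median of their log2 fold changes was -0.61. Nin, which encodes the anchoring protein ninein, had 538 ± 32.6 normalised reads in cKO cells and 1548 ± 24.7 in controls, 2.88-fold lower (log2 fold change -1.52, and -1.04 with both trends removed). Haus4, a subunit of the augmin complex that branches microtubules, had 205 ± 30.4 in cKO cells and 129 ± 1.64 in controls (log2 fold change 0.66, and 0.29 with both trends removed, where its call was lost with an adjusted p of 0.17 in limma). With the GC trend removed the list held 3 genes higher and 3 lower, and its median was -0.17.

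Tubulin folding genes were evenly split. Of 22 chaperones and tubulin cofactors 10 were listed, 5 higher and 5 lower, and the median of their log2 fold changes was 0.03. The prefoldin subunit gene Vbp1 had 965 ± 29.8 normalised reads in cKO cells and 1575 ± 77.8 in controls (log2 fold change -0.71), and its direction turned to 0.30 with the GC trend removed and 0.16 with both removed. Pfdn5, another prefoldin subunit, was 1.29-fold higher (log2 fold change 0.37), and turned to -0.02 with both trends removed. Neither of these genes thus kept its direction in all settings.

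Enzymes that modify tubulin were listed for 10 of 23 genes, 7 lower and 3 higher, and the median of their log2 fold changes was -0.45. Sirt2, a tubulin deacetylase that is abundant in myelin, had 22072 ± 1060 normalised reads in cKO cells and 65041 ± 994 in controls, 2.95-fold lower (log2 fold change -1.56 with an SE of 0.03, adjusted p 3.21e-22 in limma). The log2 fold change of Sirt2 was -1.78 with both trends removed. Tpgs1, a subunit of the complex that adds glutamate chains, had 1625 ± 84.9 normalised reads in cKO cells and 1297 ± 9.21 in controls (log2 fold change 0.32) and turned to -0.08 with the GC trend removed and -0.25 with both removed. No gene of the list was called higher in those settings, and 4 were called lower in each.

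Most listed proteins that bind along the microtubule wall fell. Of 26 genes 16 were listed, 14 lower and 2 higher, and the median of their log2 fold changes was -0.60. With the GC trend removed, 13 were lower and 2 higher. Map6d1, a relative of the microtubule-stabilising protein Map6, had 519 ± 10.2 normalised reads in cKO cells and 2391 ± 122 in controls, 4.61-fold lower (log2 fold change -2.20 with an SE of 0.06, adjusted p 1.52e-19 in limma). Map4, the widespread non-neuronal member of its family, had 12071 ± 35.6 in cKO cells and 8636 ± 150 in controls, 1.40-fold higher (log2 fold change 0.48). With both trends removed the values were -2.36 for Map6d1 and 0.53 for Map4.

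Plus-end proteins, which ride on growing microtubule tips, were listed for 14 of 22 genes, 12 lower and 2 higher, and the median of their log2 fold changes was -0.57. Mapre2, an end-binding protein, had 5316 ± 51.2 normalised reads in cKO cells and 11550 ± 194 in controls, 2.17-fold lower (log2 fold change -1.12, and -0.80 with both trends removed). Tacc1 was 1.30-fold higher (log2 fold change 0.38). The list was split 6 lower to 5 higher with both trends removed, and the median of its log2 fold changes was then -0.04.

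Destabilising and severing proteins were listed for 8 of 16 genes, 4 higher and 4 lower, and the median of their log2 fold changes was -0.17. Stmn1, which encodes the dimer-sequestering protein stathmin, had 8849 ± 71.0 normalised reads in cKO cells and 5196 ± 16.8 in controls, 1.70-fold higher (log2 fold change 0.77 with an SE of 0.03, adjusted p 2.46e-15 in limma). Katnal1, a katanin-like severing enzyme, had 1788 ± 99.1 in cKO cells and 4368 ± 12.3 in controls, 2.44-fold lower (log2 fold change -1.29). Both kept their direction with both trends removed, at 0.56 for Stmn1 and -0.91 for Katnal1.

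**Figure D4:**
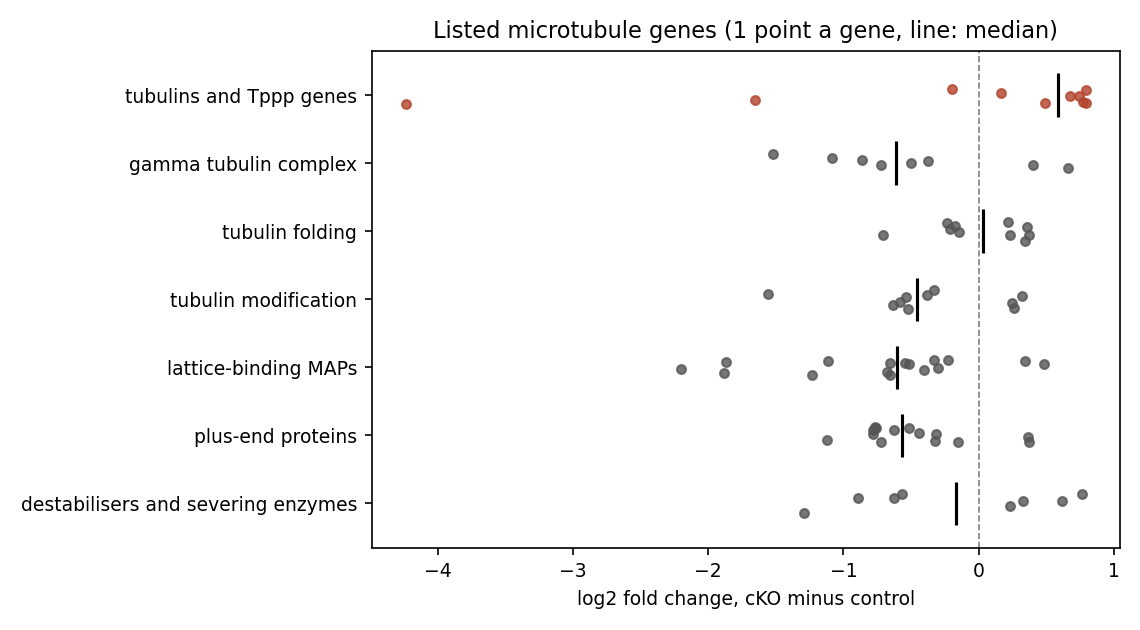
Log2 fold change, cKO over control, of the 10 members (red, top row) and of every listed gene in the 6 microtubule lists (grey), with a point per gene and a black line at each median. The wall-binding and plus-end lists lie mostly below 0, while the folding list and the list of destabilising proteins spread to both sides.

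Markers of cell types also differed between genotypes, in directions that varied between lists. The counts of each marker list are to be read beside 46.7% higher and 53.3% lower over all listed genes, all of which were called. With the GC trend removed, 2861 of 6934 genes were called higher and 2124 lower. With both trends removed, 2783 were called higher and 2110 lower, and marker counts in those settings are to be read beside these. All 14 oligodendrocyte markers were listed and all fell, with summed normalised reads of 108417 and 110328 in cKO libraries, against 443364 and 445313 in controls. Their log2 fold changes ran from -0.52 for Olig2, a lineage factor, to -4.09 for Mobp, and the myelin adhesion gene Mag was 5.76-fold lower. Oligodendrocyte precursor markers, 6 of 8 listed, were 4 lower and 2 higher, with sums of 52444 and 51339 in cKO libraries, against 61944 and 62572 in controls. Among them Lhfpl3 was 3.57-fold lower and Cspg5 was 1.62-fold higher. Astrocyte markers, 9 of 10 listed, were 7 higher and 2 lower, with sums of 764043 and 757260 in cKO libraries, against 506319 and 507134 in controls. Clu was 1.72-fold higher and S100b, which oligodendrocytes express too, was 3.09-fold lower.

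The sums of the other marker lists, likewise not corrected for gene length, were small beside these. Neuron markers, 10 of 15 listed and Tubb3 not among them, were 8 higher and 2 lower, but their sum was lower, at 10160 and 10163 normalised reads in cKO libraries, against 14010 and 14658 in controls. Elavl3, one of the 2 that fell, had 2297 ± 92.6 in cKO cells and 7447 ± 194 in controls, and Slc17a7, with the largest rise, had 67.0 ± 24.2 in cKO cells and 24.7 ± 0.400 in controls. Pericyte and fibroblast markers, 9 of 10 listed, were all higher, by 1.95-fold (Fn1) to 3.44-fold (Lum), with sums of 14004 and 13490 in cKO libraries, against 4971 and 4747 in controls. Ependymal markers, 6 of 9 listed, were all higher too, from Cfap126 (1.67-fold) to Pifo (3.36-fold), with 6676 and 6403 in cKO libraries, against 3053 and 3067 in controls. Microglia markers, 4 of 10 listed, were all higher, by 1.40-fold for C1qc, 1.70-fold for C1qb, 1.69-fold for Trem2 and 2.06-fold for Tmem119, with sums of 2009 and 2109 in cKO libraries, against 1322 and 1298 in controls. With both trends removed, limma called 2 of these 4, C1qc having a log2 fold change of 0.05 (adjusted p 1) and Tmem119 one of 0.58 (adjusted p 0.111). Proliferation markers, 5 of 9 listed, were 3 lower, led by Mki67 (1.54-fold), and 2 higher, led by Rrm2 (1.42-fold), with 5481 and 5419 in cKO libraries, against 5626 and 5744 in controls. That split turned to 3 higher and 1 lower with the GC trend removed, the median log2 fold change being -0.29 before and 0.21 after, and 0.30 with both trends removed. No listed marker was at 0 in any library. Whether other cells had a part in the levels of Tubb3, Tubb6, Tubb2a, Tubb4b, Tuba4a and Tppp3, or fewer oligodendrocytes in those of Tppp and Tubb4a, was not tested.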

How the data were processed

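The authors deposited 1 table of normalised signal, made by dividing each library's read counts by its size factor, with log2 fold changes, p-values and gene lengths, per the file headers. The submitters' processing notes name DESeq2 and the build GRCm38 (mm10), while aligner, counter and strand setting are not given in the sources used here. All 6940 listed genes had an adjusted p-value under 0.05 in the authors' deposited table, and the deposited p-values imply 17347 genes behind that adjustment. Whole reads were recovered from the deposited values (100% whole within 0.01 read), with 20068016 and 13672254 reads in listed genes of the cKO libraries and 17077509 and 16773675 in those of the controls. These sums are not full library depths.

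Genotypes were compared with limma 3.58.1 (R 4.3.3) on log2(value + 1) with a variance trend, 2 residual degrees of freedom and Benjamini-Hochberg adjustment over 17347 genes. The filter, a value of 1 or more in 2 libraries, was passed by all 6940. Variances were pooled over genes selected for their difference, so p-values may be too low. Folds are ratios of mean normalised reads, and log2 fold changes on the log2(value + 1) scale understate the change of low genes. Alternatives were edgeR 4.0.16 and DESeq2 1.42.0 on recovered reads, other pseudocounts, filters and scalings, each library left out, a replicate block, and loess removal of trends with GC content or length (6934 genes with a GC value). The other scalings and the trends were computed from the listed genes alone. Libraries of a genotype differed by more than counting noise (chi-square per degree of freedom 3.24 for cKO, 2.31 for control).

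Members, gene lists and tests were chosen with earlier results of these data known. Genes named by rule were the members, the largest rise and fall of each list (every gene of lists with 4 or fewer), the 5 nearest profiles to Tppp, Olig1, Mbp and Mag. Zdhhc5 and Stat3 were not analysed here.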

Additional observations from a re-analysis of the deposited data

How the results depend on the processing

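Over the 10 members and 16 alternative settings, 158 of 160 fold changes kept their direction and side of the threshold, and 8 members did so in all. Some settings could change little. The fit without a filter equals the main one, since all 6940 genes passed, and adjustment over the listed genes alone leaves every fold change as it was. All members had also been called by the authors in these libraries. Tuba1a lost its call with relative log expression factors, and Tubb2b turned to -0.0293 with the GC and length trends removed. The number of members at least 1.5-fold higher, 5, fell to 1 once the GC trend was removed and to 0 without both trends. Genes called lower, 3696, numbered 2124 with the GC trend removed (57.4% of calls then being higher, against 46.7%) and 2110 with both removed (56.9%). Relative log expression factors, computed from the listed genes alone, shifted the median of all log2 fold changes by 0.191 and gave 3250 higher and 2914 lower (52.7% higher). Vbp1 turned to 0.30 and 0.16, Tpgs1 to -0.0763 and -0.25 (GC, then both trends), and Pfdn5 to -0.0162 with both. The cause of these changes was not tested. DESeq2 called 3236 higher and 3690 lower, and edgeR 3244 and 3696. Leaving out 1 library at a time, the lone library being assumed to vary like the other genotype's, gave 3137 to 3228 higher and 3588 to 3684 lower, with no member's call lost.

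The fit with the replicate number as a block gave 3242 genes higher and 3696 lower and changed no member's call. The deviations of same-numbered libraries did not go together (correlation -0.00174 over 6443 genes). Those deviations hold counting noise, so the correlation cannot show whether same-numbered libraries shared animals or a preparation. The labels give them only a shared number.

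The alternative that sums Tuba1a, Tuba1b and Tuba1c was not run, since Tuba1a alone was listed. Recovered reads limit precision most for Tppp in cKO cells, with 426 and 507 reads.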
